A study of Mus musculus with 7 samples.

Results

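Methylation was examined in 7 of the 381 genes on a custom Illumina GoldenGate array of 382 CpG probes, namely Cacna1d, Adcy9, Camk2a, Ppp3cb, Ppp2r5c, Dusp5 and Mef2a. They were taken by symbol, 1 probe per gene, because these genes carry calcium, cAMP and phosphatase signals, and all 7 symbols are current in RefSeq. All DNA came from C57BL/6 mice and was read on 7 arrays, 1 per title. A2B5_mas and PSA-NCAM_mas carry the tissue label brain and are named after a surface epitope of glial progenitors and after the polysialylated adhesion molecule of migrating neuroblasts. Met_0, Met_25, Met_50, Met_75 and Met_100 carry the tissue label DNA, and their numbers were taken to be the nominal percent methylation of graded controls, a reading that the labels leave unstated. The labels give no age, sex, brain region, treatment or sorting step, nor what the ending "mas" means. Values are beta values, the methylated fraction from 0 to 1. With 1 array per title there is no replicate spread, so the brain arrays have no p-value, and only the trend over the 5 Met arrays was tested.

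Calcium enters excitable cells through voltage-gated channels and, bound to its sensor proteins, switches on the kinase CaMKII and the phosphatase calcineurin. Adenylyl cyclases make cAMP, which acts through protein kinase A on transcription factors such as CREB. Serine/threonine phosphatases and the dual-specificity phosphatases of MAP kinases turn these signals down, and in neurons MEF2 factors are among the targets that carry them into transcription. Dense CpG clusters at promoters are mostly free of methylation in normal tissue.

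The levels in brain DNA differed widely between the genes. Ppp2r5c was almost fully methylated, Cacna1d was intermediate, Adcy9 lay near 0.2, and Dusp5, Mef2a, Camk2a and Ppp3cb were low. Both brain arrays were under 0.2 at 4 of the 7 probes, against 66.0% of all 382 probes, and over 0.8 at 1 of the 7, against 2.88% of all. The median of the 7 was 0.0963 in A2B5_mas and 0.156 in PSA-NCAM_mas, while over all probes A2B5_mas had 0.101 and PSA-NCAM_mas 0.0970. The medians of the 7 fell on different genes, Mef2a in A2B5_mas and Dusp5 in PSA-NCAM_mas. Taken gene by gene, the median difference of the 7 was -0.00395 (A2B5_mas minus PSA-NCAM_mas). The order of levels was Ppp2r5c, Cacna1d, Adcy9, Mef2a, Dusp5, Ppp3cb, Camk2a in A2B5_mas and Ppp2r5c, Cacna1d, Adcy9, Dusp5, Mef2a, Camk2a, Ppp3cb in PSA-NCAM_mas. Dusp5 and Mef2a stood next to each other in both orders and changed places, as did Camk2a and Ppp3cb. No error between probes could be estimated, so the order of close neighbours is given as measured.

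**Figure D1:**
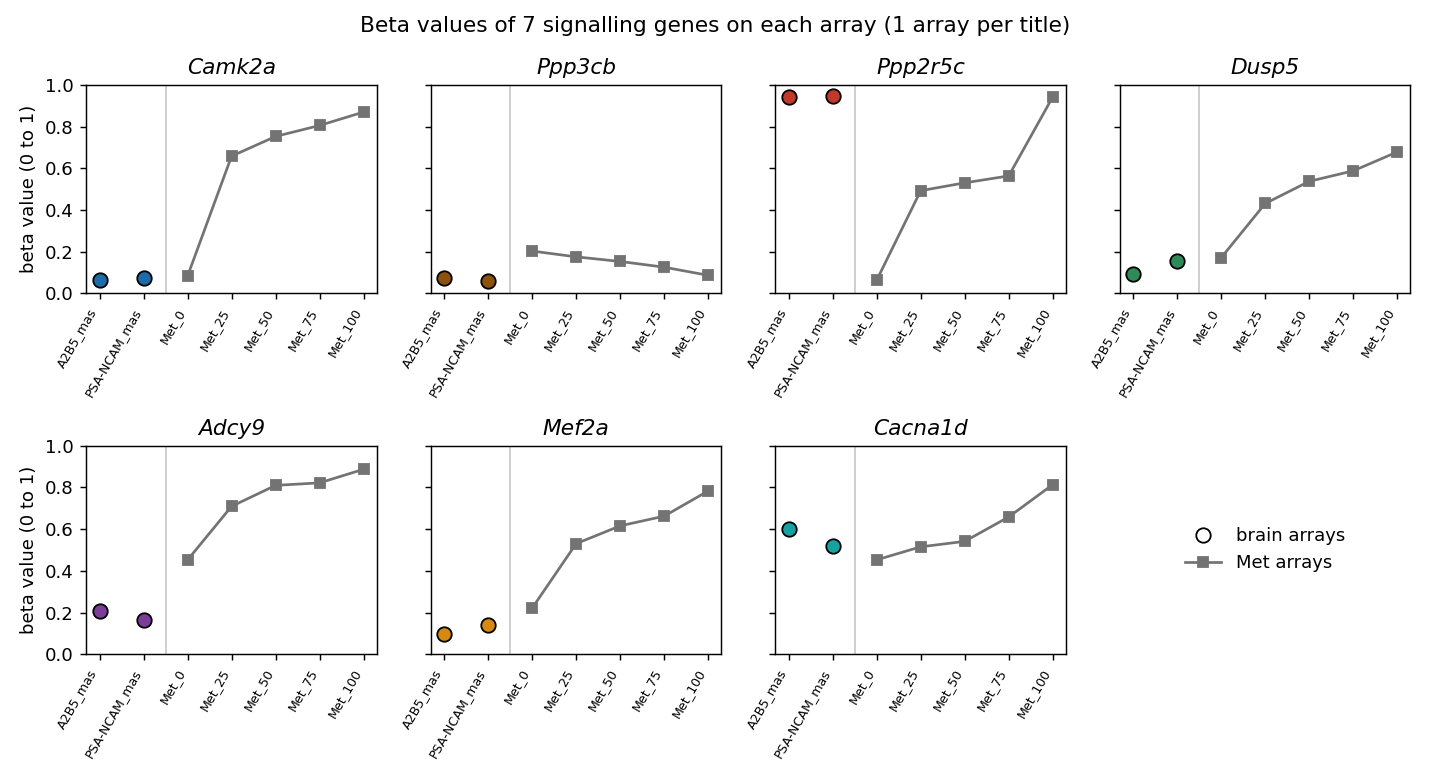
Beta value (y axis, 0 to 1) of each of the 7 genes on each array (x axis), with the brain arrays as filled circles and the Met arrays as grey squares joined by a line; each point is 1 array and has no error bar. Ppp2r5c lies at 0.943 in A2B5_mas and at 0.947 in PSA-NCAM_mas, level with Met_100, Adcy9 lies below Met_0, and Ppp3cb runs downwards over the Met arrays.

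Cacna1d encodes the pore of the L-type calcium channel Cav1.3, which opens at relatively negative voltages in neurons and inner hair cells. It had 0.602 in A2B5_mas and 0.520 in PSA-NCAM_mas. The control arrays read 0.453 (Met_0), 0.515 (Met_25), 0.541 (Met_50), 0.658 (Met_75) and 0.813 (Met_100). Both brain values lay inside the control range, which was narrow. Its Met_0 value was high, a level of at least 0.4 in that array being found at 11.5% of all probes. On the probe's own Met curve the brain values corresponded to 62.9% in A2B5_mas and 29.9% in PSA-NCAM_mas, and on a straight line from Met_0 to Met_100 to 41.3% in A2B5_mas and 18.7% in PSA-NCAM_mas. After quantile normalization the readings on the curve were 4.10% in A2B5_mas and 4.92% in PSA-NCAM_mas, with the order of the brain arrays turned, and Met_100 was then below Met_0 at this probe. The wide gap on the first scale goes with a stretch of the curve, from Met_25 to Met_50, over which beta changed little.

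RefSeq lists 2 promoter windows for Cacna1d, each of 300 bases across a transcript start and mostly upstream of it. They are shown because they differ in CpG content more than those of Ppp2r5c, the other gene with several windows here. CG dinucleotides are in capitals, sequences run 5′ to 3′ on the gene's strand, and the build is GRCm38.p6. Which of the windows, if either, holds the probed CpG is not stated.
Cacna1d, upstream start, chr14:30491107-30491406, minus strand: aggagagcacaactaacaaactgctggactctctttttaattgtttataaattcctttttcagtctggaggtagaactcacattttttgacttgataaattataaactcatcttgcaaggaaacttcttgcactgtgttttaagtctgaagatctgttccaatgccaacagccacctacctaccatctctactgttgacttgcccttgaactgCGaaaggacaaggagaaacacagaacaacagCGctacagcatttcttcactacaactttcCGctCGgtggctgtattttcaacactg
Cacna1d, downstream start, chr14:30353437-30353736, minus strand: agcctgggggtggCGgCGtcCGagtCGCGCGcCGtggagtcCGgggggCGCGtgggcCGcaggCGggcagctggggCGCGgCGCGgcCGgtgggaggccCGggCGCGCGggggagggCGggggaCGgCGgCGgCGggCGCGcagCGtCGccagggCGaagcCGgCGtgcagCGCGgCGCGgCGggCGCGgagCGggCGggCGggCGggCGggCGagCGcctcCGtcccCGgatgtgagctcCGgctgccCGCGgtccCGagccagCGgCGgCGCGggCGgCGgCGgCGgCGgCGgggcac
The upstream window holds 4 CG with 40.3% GC and the downstream one 63 CG with 87.3% GC, and the median over the 32851 mouse windows in the table is 7.

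Adcy9 encodes a membrane adenylyl cyclase that makes cAMP. It had 0.208 in A2B5_mas and 0.165 in PSA-NCAM_mas. The control arrays read 0.452 (Met_0), 0.709 (Met_25), 0.810 (Met_50), 0.822 (Met_75) and 0.887 (Met_100). Even the lowest control array was above the brain arrays, which differed from Met_0 by -0.244 in A2B5_mas and by -0.287 in PSA-NCAM_mas. The beta of 0.452 in Met_0 was rank 27 from the top there. The RefSeq window of Adcy9 holds 42 CG.

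Camk2a encodes the alpha subunit of CaMKII, an abundant kinase of excitatory neurons in the forebrain. It had 0.0642 in A2B5_mas and 0.0742 in PSA-NCAM_mas. In the Met series it read 0.0833 (Met_0), 0.658 (Met_25), 0.753 (Met_50), 0.806 (Met_75) and 0.870 (Met_100). Here the brain arrays and Met_0 lay together at the floor of the probe, and Met_25 had already covered 73.1% of the distance from Met_0 to Met_100, the highest share of the 7 probes.

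Ppp3cb encodes a catalytic subunit of calcineurin, the phosphatase that calcium activates. It had 0.0721 in A2B5_mas and 0.0602 in PSA-NCAM_mas. On the controls this probe read 0.203 (Met_0), 0.176 (Met_25), 0.154 (Met_50), 0.126 (Met_75) and 0.0871 (Met_100). Every control array was above both brain arrays, and Met_100, nominally the most methylated, was the nearest to them. No reading on the Met curve was made for this probe, which lacked the required rise. Its window, printed as that of the member whose probe ran downwards, holds 13 CG.
Ppp3cb, chr14:20546524-20546823, minus strand: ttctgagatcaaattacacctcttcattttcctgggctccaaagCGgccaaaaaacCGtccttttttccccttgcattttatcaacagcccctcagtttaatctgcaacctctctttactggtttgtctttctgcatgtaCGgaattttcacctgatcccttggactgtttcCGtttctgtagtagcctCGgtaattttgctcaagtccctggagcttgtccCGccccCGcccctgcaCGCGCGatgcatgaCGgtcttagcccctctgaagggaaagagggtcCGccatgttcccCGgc
This window has 1 match to TGACG, the partial site of the cAMP response element, searched on both strands, and 0 to the full palindrome TGACGTCA, which contains it.

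Ppp2r5c encodes a regulatory B56 subunit that directs protein phosphatase 2A to its substrates. Its beta value was 0.943 in A2B5_mas and 0.947 in PSA-NCAM_mas. The control arrays read 0.0634 (Met_0), 0.493 (Met_25), 0.531 (Met_50), 0.564 (Met_75) and 0.942 (Met_100). Both brain arrays matched the top of the control series and differed from each other by only -0.00395 (A2B5_mas minus PSA-NCAM_mas). The probe ranked 2 from the top of 382 in each brain array and 327 from the top in Met_0. A2B5_mas exceeded Met_0 by 0.880 and PSA-NCAM_mas by 0.884, and differences of at least 0.8 in both were seen at 3 of 382 probes. Its catalytic partner Ppp2ca, the catalytic subunit of phosphatase 2A, had 0.0423 in A2B5_mas and 0.0406 in PSA-NCAM_mas, against 0.0571 in Met_0 and 0.897 in Met_100. Genes of the same phosphatase thus lay at opposite ends of the range in brain DNA while their control arrays spanned a similar one.

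Ppp2r5c also has 2 windows, printed because the starts of this highly methylated gene differ in CpG content. One is rich in CG and the other lies near the median of 7 over all windows.
Ppp2r5c, upstream start, chr12:110447272-110447571, plus strand: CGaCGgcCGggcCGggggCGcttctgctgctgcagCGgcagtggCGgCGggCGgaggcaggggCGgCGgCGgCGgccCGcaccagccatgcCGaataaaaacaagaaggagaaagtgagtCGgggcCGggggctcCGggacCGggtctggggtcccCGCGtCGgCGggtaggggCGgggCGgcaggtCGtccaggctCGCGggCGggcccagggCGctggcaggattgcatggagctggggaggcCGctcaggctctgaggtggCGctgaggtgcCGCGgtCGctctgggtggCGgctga
Ppp2r5c, downstream start, chr12:110485547-110485846, plus strand: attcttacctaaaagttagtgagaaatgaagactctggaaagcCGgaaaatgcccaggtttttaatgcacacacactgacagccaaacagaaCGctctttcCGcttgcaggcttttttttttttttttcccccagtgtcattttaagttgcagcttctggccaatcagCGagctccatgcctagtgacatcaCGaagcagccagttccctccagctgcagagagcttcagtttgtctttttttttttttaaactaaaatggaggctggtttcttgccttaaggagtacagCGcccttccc
The upstream window holds 36 CG with 75.7% GC, more CG than 93.8% of all windows. The downstream one holds 6 CG with 44.3% GC, and here too the place of the probed CpG is not stated.

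Dusp5 encodes a nuclear dual-specificity phosphatase that inactivates ERK. It had 0.0941 in A2B5_mas and 0.156 in PSA-NCAM_mas. The control arrays read 0.172 (Met_0), 0.431 (Met_25), 0.538 (Met_50), 0.588 (Met_75) and 0.679 (Met_100). PSA-NCAM_mas lay close to Met_0 and A2B5_mas below it. Mef2a, a MADS-box transcription factor that calcineurin and calcium-dependent kinases regulate in neurons and muscle, had 0.0963 in A2B5_mas and 0.138 in PSA-NCAM_mas. The control arrays read 0.221 (Met_0), 0.530 (Met_25), 0.616 (Met_50), 0.662 (Met_75) and 0.783 (Met_100). Dusp5 and Mef2a were the most alike of the 21 pairs of members, with a root mean square difference of 0.0706 over the 7 arrays.

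The Dusp5 window is shown for its element related to cAMP signalling.
Dusp5, chr19:53528895-53529194, plus strand: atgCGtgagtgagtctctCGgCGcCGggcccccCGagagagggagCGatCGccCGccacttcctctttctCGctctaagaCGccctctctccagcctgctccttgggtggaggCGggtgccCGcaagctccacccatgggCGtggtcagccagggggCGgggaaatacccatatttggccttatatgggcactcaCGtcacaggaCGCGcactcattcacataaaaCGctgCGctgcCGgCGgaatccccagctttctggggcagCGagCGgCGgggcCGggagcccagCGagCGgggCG
It holds 28 CG and 1 match to TGACG, here on the opposite strand, and 0 to TGACGTCA. Of all windows 20.8% hold TGACG and 1.79% hold TGACGTCA. Adcy9 also had 1 match to TGACG, while the window of Mef2a, with 27 CG, and those of Ppp2r5c and Cacna1d had 0. Windows are reported for 6 of the 7 genes, and Camk2a was left out. Its absence does not mean that RefSeq lists no window for it.

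The Met series asks whether a probe reports graded methylation. Along it 6 of the 7 probes rose and Ppp3cb fell, each in all 4 steps, with an exact two-sided permutation p = 0.0167 over the 120 orders of the arrays. This is the smallest p that 5 arrays allow, and the Benjamini-Hochberg adjusted p over all 382 probes was 0.0206. Rising probes made up 87.7% of all probes and falling ones 1.57%, so the rise of the 6 is what most probes did. The slope over the full series was 0.732 ± 0.172 for Ppp2r5c (SE of a linear fit to n = 5 arrays), 0.688 ± 0.239 for Camk2a, 0.503 ± 0.107 for Mef2a and 0.468 ± 0.0890 for Dusp5. It was 0.393 ± 0.104 for Adcy9, 0.346 ± 0.0587 for Cacna1d and -0.113 ± 0.00673 for Ppp3cb. Without Met_0 the slope was 0.275 for Camk2a, 0.218 for Adcy9, 0.322 for Mef2a and 0.317 for Dusp5, so that array decided much of their size. It was 0.553 for Ppp2r5c and, larger than before, 0.405 for Cacna1d, both moved by more than their SE. Ppp3cb kept -0.117, and 4 arrays allow no p below 0.0833. Quantile normalization, which gives all arrays 1 distribution, left 0 of the 7 past the adjusted threshold in the exact permutation test, and at an unadjusted p under 0.05 it left 1, Ppp3cb. The labels do not say whether the Met arrays are separate samples or mixtures of a single pair of DNAs, so the p-values cover only the order of these arrays.

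The curves had different shapes. Ppp2r5c was a staircase: it gained only 0.0708 between Met_25 and Met_75, with most of its rise before and after. Cacna1d had covered 17.3% of its rise at Met_25, the smallest share of the 6 rising probes, and Adcy9 59.1%, Mef2a 55.0% and Dusp5 51.2%. Ppp3cb, with a small total change of -0.116, followed a nearly straight line. Met_100 exceeded Met_0 by at least 0.3 at 6 of the 7, all but Ppp3cb, against 86.6% of all probes. Read on their own Met curves, Camk2a, Dusp5, Adcy9 and Mef2a stood at 0 in both brain arrays because their values lay below Met_0, as did 55.9% of the 331 probes with such a rise, and Ppp2r5c stood at 100 in both, as did 0.906%.

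Brain DNA was then set against Met_0, the control array with the lowest number. By a size of at least 0.2 in both brain arrays, Ppp2r5c was higher, against 14.9% of all probes, and Adcy9 was lower, against 6.81%. The others did not reach that size. Ppp3cb differed from Met_0 by -0.131 in A2B5_mas and by -0.143 in PSA-NCAM_mas. Mef2a differed by -0.124 in A2B5_mas and -0.0827 in PSA-NCAM_mas. For Dusp5 the difference was -0.0776 in A2B5_mas and -0.0155 in PSA-NCAM_mas, and for Camk2a it was -0.0191 in A2B5_mas and -0.00914 in PSA-NCAM_mas. Cacna1d alone among them was above Met_0, by 0.149 in A2B5_mas and by 0.0674 in PSA-NCAM_mas. Of the 7, 5 were thus below Met_0 in both brain arrays by some amount, against 58.1% of all probes.

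**Figure D2:**
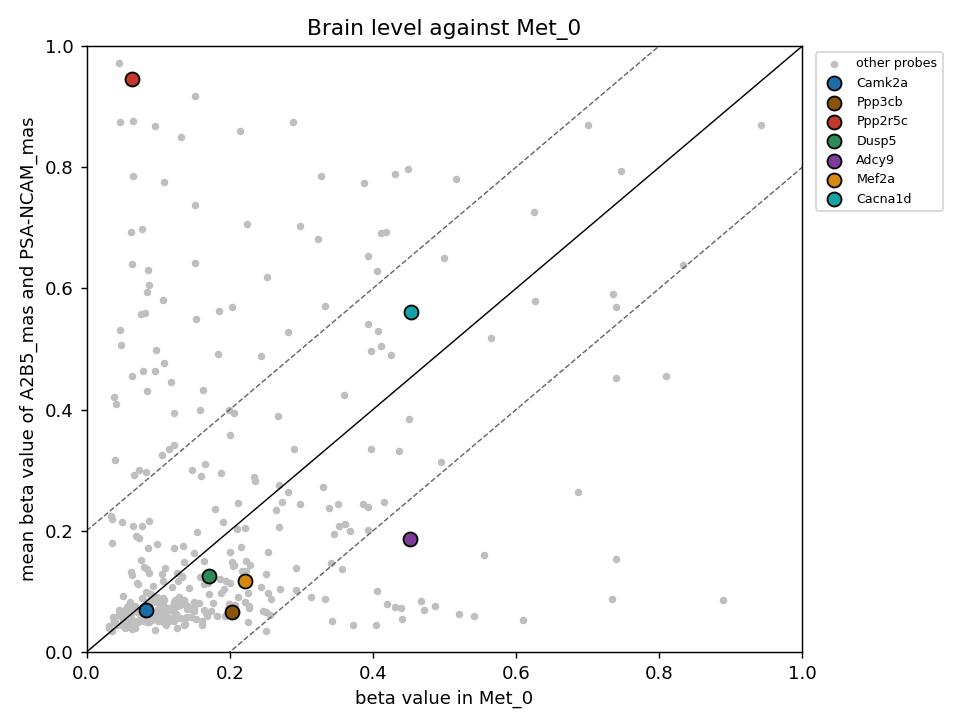
Mean beta value of A2B5_mas and PSA-NCAM_mas (y axis) against the beta value in Met_0 (x axis) for all 382 probes, with the 7 genes in colour and the others in grey; the solid line marks equality and the dashed lines a difference of 0.2. Ppp2r5c lies at the upper left, with a brain mean of 0.945 against 0.0634 in Met_0, and Adcy9 lies below the lower dashed line.

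The contrast of A2B5_mas with PSA-NCAM_mas sets material named after a glial progenitor marker against material named after a neuroblast marker. With a size of at least 0.05, Cacna1d was higher in A2B5_mas, at 0.602 against 0.520 in PSA-NCAM_mas, a difference of 0.0815, which quantile normalization over the arrays reduced to 0.0108. The same size was reached in that direction by 12.0% of all probes. Dusp5 was lower in A2B5_mas, at 0.0941 against 0.156 in PSA-NCAM_mas, a difference of -0.0622, and this direction held only 0.785% of all probes, 3 of 382. Mef2a followed with -0.0418, Adcy9 had 0.0428, Ppp3cb 0.0118, Camk2a -0.0100 and Ppp2r5c -0.00395. A2B5_mas was higher at 3 of the 7 probes and at 249 of 382. The median absolute difference was 0.0418 for the 7 and 0.0108 over all probes. These medians are not matched for level. At the 194 probes with a mean brain value under 0.1, Camk2a and Ppp3cb among them, differences ran only from -0.0343 to 0.0274.

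The only gauge of array error lay in the controls. Over the 331 probes with a rise of at least 0.3, the departure of Met_50 from the midpoint of Met_25 and Met_75 corresponded to an SD of 0.0326 for the difference between 2 arrays. It includes any true bend of the curves, and it comes from levels above those of the low brain probes. The differences of Cacna1d, Dusp5, Adcy9 and Mef2a exceeded it and those of Ppp3cb, Camk2a and Ppp2r5c did not. The split holds for the deposited values, on which the SD was gauged. Quantile normalization changes the scale, and it moved Ppp3cb to 0.379 in A2B5_mas and 0.322 in PSA-NCAM_mas, from 0.0721 and 0.0602. The SD is thus no matched yardstick for normalized differences. Set against it all the same, Cacna1d at 0.0108 and Adcy9 at 0.0160 lay under it. Ppp3cb at 0.0574 and Camk2a at -0.0357 lay beyond it, and Dusp5, Mef2a and Ppp2r5c kept their sides. Among probes of like level the picture differed by gene. Of the 64 probes with a mean brain value from 0.1 to 0.2, where differences ran from -0.0622 to 0.0629, Dusp5 was the lowest, 2 lay below Mef2a and 2 above Adcy9. Of the 62 probes from 0.4 to 0.8, 57 had the higher value in A2B5_mas, the median difference was 0.0593, and 14 exceeded Cacna1d. The difference of Cacna1d thus ran with a shift shared by its level, while those of Dusp5 and Mef2a ran against the median of theirs, 0.00705.

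**Figure D3:**
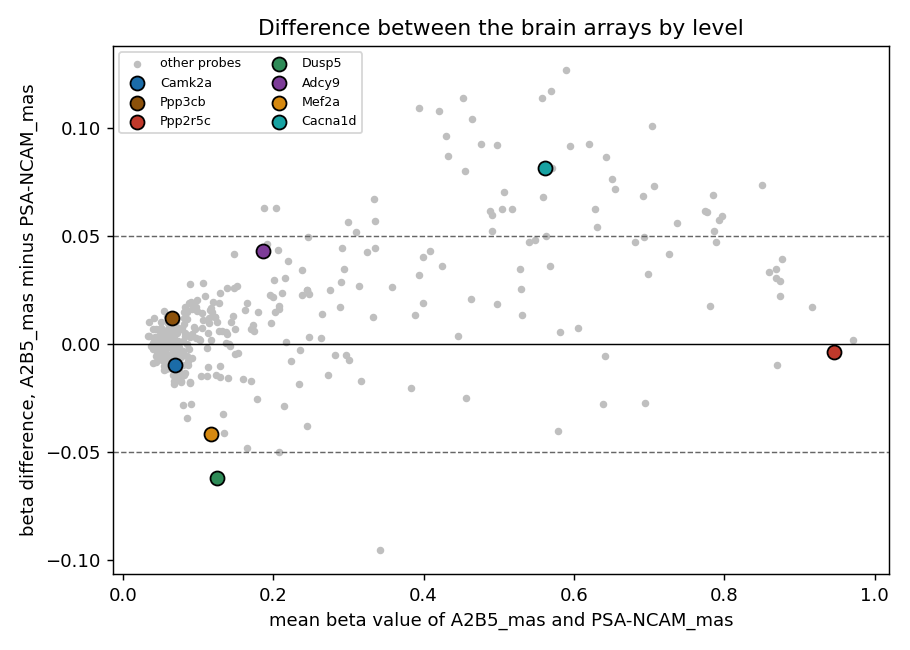
Difference in beta value, A2B5_mas minus PSA-NCAM_mas (y axis), against the mean of both brain arrays (x axis) for all 382 probes, with the 7 genes in colour and the others in grey; dashed lines mark differences of 0.05 either way. Dusp5 at -0.0622 lies below the lower line, Mef2a at -0.0418 lies above it, and Cacna1d at 0.0815 lies among many probes of intermediate level that were higher in A2B5_mas.

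Of 126 other genes of these pathways listed, 6 had a probe, among them Ppp3ca and Ppp3r1, the catalytic alpha and the regulatory subunit of calcineurin, Ppp2ca, Dusp6 (a cytoplasmic ERK phosphatase) and Atp2b2 (a plasma membrane calcium pump). All 6 rose along the Met series, with exact permutation p-values adjusted over all probes of 0.0206 for Ppp2ca, Ppp3r1, Dusp6 and Atp2b2 and 0.0373 for Ppp3ca. The calcineurin subunits therefore parted on the controls. Ppp3ca had a slope of 0.570 and Ppp3r1 one of 0.491, against -0.113 for Ppp3cb. In brain DNA Ppp3ca was low like Ppp3cb, with 0.0721 in A2B5_mas and 0.0787 in PSA-NCAM_mas, whereas Ppp3r1 was intermediate, with 0.588 in A2B5_mas and 0.538 in PSA-NCAM_mas, against 0.185 in Met_0. Among the 6, it was the one gene that passed the size of 0.2 against Met_0 and, barely, that of 0.05 between the brain arrays, with a difference of 0.0501. Dusp6 had 0.0804 in A2B5_mas and 0.0987 in PSA-NCAM_mas. Its gap of -0.0183 ran the same way as that of Dusp5 but was smaller than the SD of 0.0326 gauged on the controls. At Atp2b2 A2B5_mas had 0.0375 and PSA-NCAM_mas 0.0338.

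The probes most like each of the 7 genes were found by the smallest root mean square difference in beta over the 7 arrays. Camk2a had the closest match, Spry2 (an inhibitor of growth factor receptor signalling) at 0.0109, followed by Htr7 (a serotonin receptor) at 0.0190. Mef2a was nearest to Dek (a chromatin protein) at 0.0191 and to Edg4, now Lpar2 (a lysophosphatidic acid receptor), at 0.0335. Dusp5 was nearest to P2rx4 (an ATP-gated channel) at 0.0275 and Mme (the peptidase neprilysin) at 0.0324. For Adcy9 these were Amigo1 (a neuronal adhesion protein) at 0.0388 and Chd7 (a chromatin remodeller) at 0.0488, and for Ppp3cb Slc6a4 (the serotonin transporter) at 0.0394 and Fbxo11 (a ubiquitin ligase subunit) at 0.0591. The nearest to Ppp2r5c were Lep (leptin) at 0.0564 and Brs3 (a bombesin receptor family member) at 0.0788, and to Cacna1d F2 (prothrombin) at 0.0727 and Trhr2 (a thyrotropin-releasing hormone receptor) at 0.0736. Mme shared with Dusp5 the lower value in A2B5_mas, 0.142 against 0.190 in PSA-NCAM_mas, while P2rx4 did not, with 0.153 in A2B5_mas against 0.146 in PSA-NCAM_mas. Lep shared with Ppp2r5c a high brain level, with 0.889 in A2B5_mas and 0.860 in PSA-NCAM_mas against 0.0474 in Met_0.

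Markers of the cells the titles name were probed sparsely, and their methylation was not used to name a sample. Of 5 astrocyte markers listed 2 were on the array, of 8 oligodendrocyte markers 3, of 7 neuronal ones 1, of 4 blood ones 1 and of 4 endothelial ones 1. A2B5_mas had 0.640 and PSA-NCAM_mas 0.549 at Gfap, the astrocyte filament. This gap was of about the size of that of Cacna1d and in the same direction. At Ncam1, the carrier of polysialic acid, A2B5_mas had 0.0741 and PSA-NCAM_mas 0.0791, and at Ifng, expressed by lymphocytes, A2B5_mas had 0.609 and PSA-NCAM_mas 0.601. The part of the cell makeup of either sample in the differences was not tested.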

How the data were processed

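Methylation was measured with a custom GoldenGate array, on which bisulphite-converted DNA is read in Cy3 and Cy5 at each chosen CpG. The table the authors deposited holds 382 probes and 7 arrays. Its values, computed by the authors in a way not given in the sources used here, were read as beta values, the methylated fraction, because all lay between 0.0282 and 0.972 and 0 were missing. How the authors corrected background or scaled the arrays, with which software and build, is likewise not given; either step could move a beta value or a difference. The number of arrays, 1 per title, limits the precision.

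The 7 genes, the pathway and marker lists, the level ranges and the sizes of 0.05 and 0.2 were chosen with earlier results of these data known. Genes named are the 7, for each the 2 other probes nearest over all arrays, and the list members on the array, of which 2 are not reported here. Slopes on the title numbers were tested by exact two-sided permutation, adjusted by Benjamini-Hochberg over all probes. Met curves were made monotone by isotonic regression. The code recovered known changes in simulated data. The simulated trends were straight, with less noise than was gauged on these arrays, and the simulated brain pair had no noise. That run therefore checked the code and not how well such changes can be called here. Symbols and promoter windows came from RefSeq tables of GRCm38.p6. Computations used Python 3.11.15, numpy 2.4.6, pandas 2.3.3, scipy 1.17.1, scikit-learn 1.9.0 and matplotlib 3.10.9. Alternatives covered the scale, normalization, centring, sizes, the curve and each Met array.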

Additional observations from a re-analysis of the deposited data

How the results depend on the processing

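Quantile normalization over the 7 arrays, which gives every array the same distribution and so removes the graded rise itself, left 0 of the 6 rising members and 0 of the 1 falling member after adjustment, and 0 of 382 probes in either direction (exact permutation test). At an unadjusted p under 0.05 that setting had 47 rising and 64 falling probes, among them Ppp3cb. On probes with a rise of at least 0.3, which leaves out Ppp3cb, 0 members fell. In the contrast of A2B5_mas with PSA-NCAM_mas, sizes of 0.1 and 0.2 called 0 members in either direction. Over all 382 probes a size of 0.1 called 8 higher and 0 lower in A2B5_mas. The differences ran only from -0.0955 to 0.127. On the Met curves, where Dusp5 read 0 in both arrays, 0 members were lower in A2B5_mas by 5 percentage points. Of all 331 probes with a rise of at least 0.3, 0 were lower on that scale and 40 higher. Quantile normalization kept Dusp5 as the lower member, but the higher one was then Ppp3cb at 0.0574 in place of Cacna1d at 0.0108, and over all probes 16 were higher and 26 lower, against 46 and 3 on the deposited values. Against Met_0 a size of 0.1 called 2 members lower (Adcy9 and Ppp3cb), against 68 of 382 probes. One of 0.3 called 0 members lower, against 19 of 382. Ppp2r5c was higher under all 4 alternatives. Of all 382 probes, 82 were higher at a size of 0.1 and 43 at 0.3. After quantile normalization 42 were higher, and after centring 63. After quantile normalization 0 members read 0 on the Met curve in both arrays, against 4. Of 99 alternative values of 33 results, 69 stayed within their yardsticks, which were 1.5 times for counts, the slope's SE, 0.0326 for beta differences and 5 percentage points on the curve. The yardstick of 0.0326 came from the deposited values and was also used after quantile normalization, where the scale differs. No paired analysis was possible because each title has 1 array, and for the same reason no replicate could be left out.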

Other observations

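The RefSeq promoter windows allowed a look at the other probed genes, with the richest window taken where a gene has several. Of the 382 probes, 284 had a window. Brain levels were lower where the window held more CG, with Spearman's rho of -0.34 across these 284 probes between the number of CG and the mean of both brain arrays. The probes share the same 2 arrays and are not replicates, and the window need not hold the probed CpG. Of the 132 probes whose gene had a window of at least 20 CG, 79.5% had a mean brain level under 0.2, and of the 152 with fewer 56.6% did. A level over 0.8 in spite of such a window was seen at 2 of the 132, and Ppp2r5c, with 36 CG in its upstream window, is 1 of them.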
